A study of Mus musculus with 6 samples.

Results

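The 10 genes described here encode hallmark proteins of megakaryocytes and platelets. They were chosen by symbol, as Pf4, Vwf, Selp, Treml1, Itga2b, Gp1bb, Gp9, Cd9, Nfe2 and Gfi1b. The count table held all 10 among its 27179 genes, and the normalized table held 9 among 12179, without Treml1. RNA-Seq was performed on long-term hematopoietic stem cells (LT-HSCs), sorted from mouse bone marrow as CD150+CD48-LSK cells, to ask which genes differ when 1 copy of Foxm1 is deleted. Foxm1 encodes a forkhead transcription factor that drives cell-cycle genes. There were 2 groups of C57BL/6 mice at 8 weeks of age, WT (n = 3) and Foxm1 HET (n = 3). The samples of the HET group are titled by the floxed allele in the heterozygous state, Foxm1 fl/+, and the Cre line is not named for these libraries. The study worked with Tie2-Cre and with Mx1-Cre crosses, and Tie2-Cre also acts in endothelium. Its methods and legends use Foxm1 fl/+ mice without Cre as controls in other experiments, so the titles do not by themselves show a deletion, and the group is taken from the genotype label. Whether the WT mice of these libraries carried Cre or a floxed allele is not stated for them.

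Megakaryocytes are the large marrow cells that shed platelets, and platelets stop bleeding by adhering to injured vessel wall through the glycoprotein Ib-IX-V complex, which binds von Willebrand factor, and by aggregating through the integrin αIIbβ3. Their α-granules store cargo such as platelet factor 4, von Willebrand factor and P-selectin, which is displayed on the surface on activation. Many of these genes are regulated by GATA1, ETS factors, GFI1B and NF-E2. Part of the LT-HSC pool is known to carry platelet-lineage transcripts such as Vwf and to be primed toward megakaryocytes, so that some of these genes can be read in stem cells as well as in the lineage itself.

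In these libraries the genes did not move as a block. Selp and Gfi1b had more reads in every Foxm1 HET library than in any WT library. In scaled levels, 338 of all 8195 genes tested (4.12%) had every HET library above every WT library. Another 373 (4.55%) had every HET library below. Vwf and Nfe2, the better covered of the other members, overlapped between genotypes, and Cd9 was highest in WT replicate 1. Pf4, Gp1bb and Gp9 each reached 10 reads in only 1 of the 6 libraries, Itga2b did so in 2, and Treml1 had no read. None of the differences passed the adjusted threshold of the edgeR quasi-likelihood test.

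The stretches of 250 bases before the transcription start, from RefSeq on GRCm38.p6, are shown for 4 members because they stand for the contrast in the data. Selp and Gfi1b are the members with non-overlapping groups, Itga2b had its reads mainly in 2 Foxm1 HET libraries, and Gp9 is a lineage-restricted gene that reached 10 reads in 1 WT library. Capitals mark matches on either strand. The letters GATAA stand for the core bound by GATA factors. The letters AGGAAG stand for an ETS core, which shows as CTTCCT where it was read on the other strand. The letters AAATCA stand for the core bound by GFI proteins. The matches printed do not overlap each other. Sequences run 5′ to 3′ on the strand of the gene.
Selp, chr1:164115014-164115263, + strand: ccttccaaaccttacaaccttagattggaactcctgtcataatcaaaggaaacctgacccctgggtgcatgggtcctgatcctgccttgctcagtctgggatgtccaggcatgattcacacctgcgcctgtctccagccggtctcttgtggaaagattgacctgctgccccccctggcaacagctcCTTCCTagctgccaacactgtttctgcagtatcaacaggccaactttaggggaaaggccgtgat
Gfi1b, chr2:28621983-28622232, - strand: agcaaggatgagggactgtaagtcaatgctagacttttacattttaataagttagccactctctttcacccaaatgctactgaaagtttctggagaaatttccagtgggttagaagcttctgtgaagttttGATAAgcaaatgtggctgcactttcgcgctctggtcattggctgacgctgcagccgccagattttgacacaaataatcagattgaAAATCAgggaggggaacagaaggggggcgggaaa
Itga2b, chr11:102469884-102470133, - strand: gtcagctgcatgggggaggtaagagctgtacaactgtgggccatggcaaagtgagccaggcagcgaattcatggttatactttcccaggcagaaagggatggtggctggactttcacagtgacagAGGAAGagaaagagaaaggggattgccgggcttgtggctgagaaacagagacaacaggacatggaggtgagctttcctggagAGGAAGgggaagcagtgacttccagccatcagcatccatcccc
Gp9, chr6:87777820-87778069, + strand: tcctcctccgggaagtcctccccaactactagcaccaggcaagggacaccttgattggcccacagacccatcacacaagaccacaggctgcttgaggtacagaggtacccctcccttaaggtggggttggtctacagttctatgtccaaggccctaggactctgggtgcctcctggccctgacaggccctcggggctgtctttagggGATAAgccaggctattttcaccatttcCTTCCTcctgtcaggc

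The Gfi1b stretch held a GATA match at −119 and a GFI match at −34 from the start, and the Gp9 stretch a GATA match at −43 and an ETS match at −16. The Selp stretch held 1 ETS match, at −64, and the Itga2b stretch held 2, at −125 and −43. Promoter entries were matched for 8 of the 10 members, all but Vwf and Nfe2. Of these 8, 5 held AGGAAG (Selp, Pf4, Gp9, Cd9 and Itga2b), against 29.5% of all 32851 promoter entries cut to the same length, and 2 held GATAA (Gfi1b and Gp9), against 22.6%. AAATCA was found in 1 (Gfi1b), against 12.4%. Neither the forkhead letters TAAACA (in 3952 of all 32851 promoters) nor the NF-E2 letters TGAGTCA (4.46%) were found in any of the 8. A match is a match of letters only, and the RefSeq start of Gp9 lies before the one in the count table.

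The libraries held 14573002 to 25798509 counted reads, and 4467 to 9894 genes had at least 10 reads, with Foxm1 HET replicate 2 lowest on both. TMM scaling gave effective library sizes from 6473743 (Foxm1 HET replicate 2) to 41838205 (Foxm1 HET replicate 3). TMM is a scaling for library composition, and CPM is a gene's share of the scaled reads, on a fixed scale (or of the counted reads, where library size is named or levels are summed). Correlations of log2 CPM between libraries were 0.289 to 0.327 within WT, 0.358 to 0.441 within Foxm1 HET and 0.306 to 0.443 between genotypes, so that libraries of 1 genotype resembled each other no more than those of the other genotype. Foxm1 itself had 1182, 2615 and 2942 reads in WT replicates 1 to 3 and 659, 5 and 742 in Foxm1 HET replicates 1 to 3, with every HET library below every WT library (log2 fold change −3.30 ± 2.33 SE, edgeR adjusted p = 0.961; exact two-sided permutation p = 0.1). With 3 libraries against 3, 0.1 is the smallest p that test can give. LT-HSC marker genes were detected in every library (8 to 13 of 13, summed level 2827 to 7483 CPM in WT and 4320 to 5885 CPM in Foxm1 HET). Neutrophil and monocyte markers were also read in every library (11 of 12), at 6721 to 17820 CPM in WT and 2167 to 12820 CPM in Foxm1 HET, and their part in the results below was not tested. Whether a level differs because fewer cells carried a transcript or because each cell carried less of it cannot be told apart in bulk RNA.

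Across all 8195 genes tested, 27 passed an adjusted p under 0.05 in edgeR, which is 0.329%, and 494 (6.03%) had an unadjusted p under 0.05. None of the 5 members that could be tested (Vwf, Selp, Cd9, Nfe2 and Gfi1b) passed either limit. Pf4, Itga2b, Gp1bb and Gp9 fell under the filter on low counts, and Treml1 had 0 reads. Of the 5 tested members, 2 had a higher fitted level in Foxm1 HET and 3 a lower one, with a median log2 fold change of −0.86, whereas 4471 of all 8195 genes (54.6%) were lower, with a median of −0.26. The spread between replicates was wide for genes in general: the biological coefficient of variation was 1.66 and the median SE of a log2 fold change was 2.59.

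**Figure D1:**
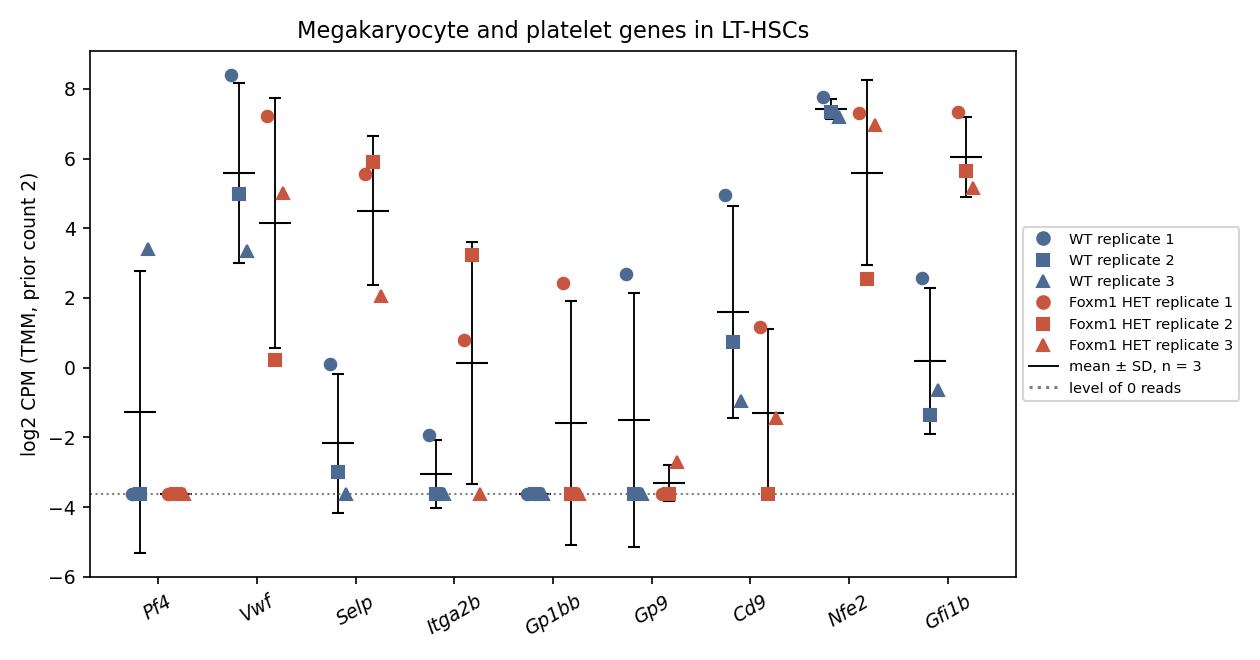
Level of each detected member in every library, on the y axis as log2 CPM after TMM scaling with a prior count of 2, with genes on the x axis. Symbols are the 3 WT (blue) and 3 Foxm1 HET (red) replicates, bars give the mean ± SD, and the dotted line is the level of 0 reads. The genotypes separate only for Selp and Gfi1b, and Pf4, Gp1bb and Gp9 rise clear of the dotted line in 1 library each. Of all 8195 genes tested, 338 (4.12%) had every HET library above every WT library.

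Among the granule and vessel-wall adhesion proteins, Selp showed the widest gap. Selp encodes P-selectin, the adhesion receptor that platelets and endothelial cells move to their surface on activation, and it lies at chr1:164115264-164150026 on the + strand (GRCm38). It had 22, 1 and 0 reads across WT replicates 1 to 3, against 1793, 388 and 170 across Foxm1 HET replicates 1 to 3. Every HET library was thus above every WT library, on the TMM scale, on the library-size scale and in the normalized table. Log2 CPM averaged −2.17 ± 1.99 (SD, n = 3) over the WT libraries against 4.51 ± 2.13 (SD, n = 3) over those of Foxm1 HET. Of all genes tested, 338 (4.12%) had every HET library above every WT library. The fitted log2 fold change was 6.71 ± 3.52 SE (edgeR, unadjusted p = 0.0565, adjusted p = 0.853), and the exact permutation p was 0.1.

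The size of the Selp difference varied with the library left out, from 6.12 to 10.33 on the log2 scale. The fitted direction was the same in all 14 alternatives that gave it a value, which adds little where the groups do not overlap. DESeq2 alone called it, with an adjusted p of 0.00969 where the other alternatives reached up to 1, in a test that called 194 of the 6195 genes to which it gave an adjusted p (3.13%). A share of 12.7% of Selp exon bases overlaps the antisense gene Gm16548, and whether reads were counted by strand is not given in the sources used here, so that part of the reads cannot be assigned with certainty. Endothelial cells also make P-selectin. The 9 endothelial markers summed to 13.3 to 77.4 CPM in WT and 114 to 249 CPM in Foxm1 HET, with 2 to 7 of them at 10 reads or more. Of the 4 that could be tested, 3 had a higher and 1 a lower fitted level in Foxm1 HET, with a median log2 fold change of 2.34, and none had an unadjusted p under 0.05. The defining markers Plvap and Cldn5 were at 0 in all 6 libraries, and Cdh5 had 51 reads in WT replicate 1 and 0 in every other library. Tek, which LT-HSCs also express, had 242, 10 and 1 reads across the WT libraries, against 1082, 91 and 4071 across those of Foxm1 HET, with every HET library above every WT library in log2 CPM and in the normalized table and an overlap by library size. The part of endothelial RNA in the Selp level was not tested.

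Vwf, which encodes von Willebrand factor, the multimeric ligand that tethers platelets to exposed collagen, overlapped between genotypes. It lies at chr6:125552963-125686677 on the + strand. There were 7505, 709 and 163 reads across the WT libraries, against 5700, 7 and 1339 across those of Foxm1 HET, so that replicate 1 was highest in each genotype. Log2 CPM averaged 5.58 ± 2.58 (SD, n = 3) over the WT libraries against 4.15 ± 3.58 (SD, n = 3) over those of Foxm1 HET. The fitted log2 fold change was −1.06 ± 1.97 SE (edgeR adjusted p = 0.998). Without WT replicate 1 it turned to 1.67, and without Foxm1 HET replicate 1 it was −2.79.

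Pf4 and Treml1 were hardly read. Pf4 encodes platelet factor 4, the α-granule chemokine that binds heparin, and lies at chr5:90772435-90773383. All of its 168 reads came from WT replicate 3, where it reached 7.81 CPM by library size. It had 0 reads in the other 5 libraries, including all 3 of Foxm1 HET. Treml1 encodes a receptor of platelet and megakaryocyte α-granules and lies at chr17:48359916-48367146. It had 0 reads in all 6 libraries. A count of 0 allows up to 3 reads, which is 0.116 to 0.206 CPM by library size in these libraries, for counting error only.

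The receptor subunits of the glycoprotein Ib-IX-V complex and of the platelet integrin were near the floor in most libraries. Itga2b encodes integrin αIIb, also known as CD41, and lies at chr11:102453297-102469883 on the − strand. It had 4, 0 and 0 reads across the WT libraries, against 63, 60 and 0 across those of Foxm1 HET, so that 2 HET libraries stood above all WT libraries and the third held none. The similar reads of HET replicates 1 and 2 were scaled differently: they were 2.48 and 4.12 CPM by library size, 0.80 and 3.22 on the TMM log2 scale, and 0.54 and 4.16 in the normalized table. The value of 0.54 in HET replicate 1 was also that of WT replicate 1, which held 4 reads. The exact permutation p for Itga2b was 0.4.

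Gp9, the small subunit glycoprotein IX that is needed for the complex to reach the surface, lies at chr6:87778136-87779762. It had 142 reads in WT replicate 1, 3 in Foxm1 HET replicate 3 and 0 in the other 4 libraries. Gp1bb encodes the β-chain of glycoprotein Ib and lies at chr16:18620319-18622403 on the − strand. It had 204 reads in Foxm1 HET replicate 1 and 0 in the other 5 libraries. Its count is uncertain, since 90.6% of its 50-base stretches are also found in transcripts of other genes, chiefly those of the neighbour Sept5, and 28.4% of its exon bases lie in that gene. The exact permutation p was 1 for both Gp9 and Gp1bb.

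Of all genes in the normalized table, 2135 (17.5%) had at least 10 reads in exactly 1 library and 2511 (20.6%) in all 6. Of the members, Pf4, Gp1bb and Gp9 were in the former class and Nfe2 alone in the latter. Between 3 and 7 of the 10 members reached 10 reads in a library, namely 6, 3 and 3 of them across the WT libraries, against 7, 4 and 5 across those of Foxm1 HET. The library with the most members, Foxm1 HET replicate 1, was also the one with the most genes detected. The summed level of the members was 661, 190 and 124 CPM across the WT libraries, against 788, 55.9 and 318 CPM across those of Foxm1 HET, and the genotypes overlapped.

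Cd9 encodes a tetraspanin, a membrane organizer that is abundant on platelets and megakaryocytes, and lies at chr6:125460266-125494755 on the − strand. It had 689, 36 and 7 reads across the WT libraries, against 83, 0 and 12 across those of Foxm1 HET. On the log2 CPM scale the genotypes overlapped, at 1.59 ± 3.04 (SD, n = 3) over the WT libraries against −1.29 ± 2.40 (SD, n = 3) over those of Foxm1 HET. In the normalized table they did not, with 5.88, 2.22 and 2.16 for WT against 1.27, 0.18 and 0.49 for the HET libraries. The fitted log2 fold change was −3.73 ± 3.30 SE (edgeR adjusted p = 0.986), and without WT replicate 1 it was −0.18. A share of 14.4% of its 50-base stretches is found in transcripts of other genes.

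The 2 transcription factors differed from each other. Gfi1b encodes a zinc-finger repressor that is required for megakaryocyte and erythroid development, and lies at chr2:28609450-28621982 on the − strand. It had 130, 7 and 9 reads across the WT libraries, against 6205, 323 and 1478 across those of Foxm1 HET. The lowest HET library, by any of the 3 scales, was above the highest WT library. On the TMM scale, 338 of all genes tested (4.12%) had their groups apart in that direction. Log2 CPM averaged 0.20 ± 2.09 (SD, n = 3) over the WT libraries against 6.05 ± 1.16 (SD, n = 3) over those of Foxm1 HET. The fitted log2 fold change was 5.20 ± 2.81 SE (edgeR, unadjusted p = 0.0647, adjusted p = 0.886), with an exact permutation p of 0.1. Leaving out each library in turn gave 4.27 to 7.65. The direction was kept in all 14 alternatives with a value, which, as for Selp, adds little where the groups do not overlap. DESeq2 called Gfi1b at an adjusted p of 0.0337, and no other alternative did (up to 1). Erythroid cells also express Gfi1b, and of 12 erythroid markers listed, 11 were in the count table. Of these, 6 to 9 had at least 10 reads in a library and Hba-a1 had none. The summed level was 590 to 1836 CPM in WT and 280 to 1029 CPM in Foxm1 HET. Of the 9 that could be tested, 1 had a higher and 8 a lower fitted level in Foxm1 HET (median log2 fold change −2.25), where 54.6% of all genes tested were lower. Car1 had every HET library above every WT library, against 338 of all genes tested (4.12%). The part of erythroid RNA in the Gfi1b level was not tested.

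Nfe2 encodes the p45 subunit of NF-E2, the factor that drives late megakaryocyte maturation and platelet release, and lies at chr15:103248217-103255416 on the − strand. It was read in every library, with 4781, 3627 and 2319 reads across the WT libraries, against 6004, 37 and 5208 across those of Foxm1 HET. Only HET replicate 2 stood apart from the other 5 libraries. Log2 CPM averaged 7.42 ± 0.299 (SD, n = 3) over the WT libraries, the narrowest spread of any tested member, against 5.60 ± 2.66 (SD, n = 3) over those of Foxm1 HET. The fitted log2 fold change was −0.86 ± 1.82 SE (edgeR adjusted p = 0.998).

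Per transcript length, the order of the members was set by Nfe2, with a median over the 6 libraries of 254 TPM (reads per base of transcript, scaled to the same total in each library), followed by Gfi1b (17.2), Vwf (11.1), Selp (2.63), Cd9 (1.99) and Itga2b (0.0631). The median was 0 for Pf4, Gp1bb, Gp9 and Treml1. Levels of neighbours in this order overlapped between libraries: TPM ranged from 3.34 to 311 for Nfe2, from 0.388 to 280 for Gfi1b and from 0.120 to 92.3 for Vwf.

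**Figure D2:**
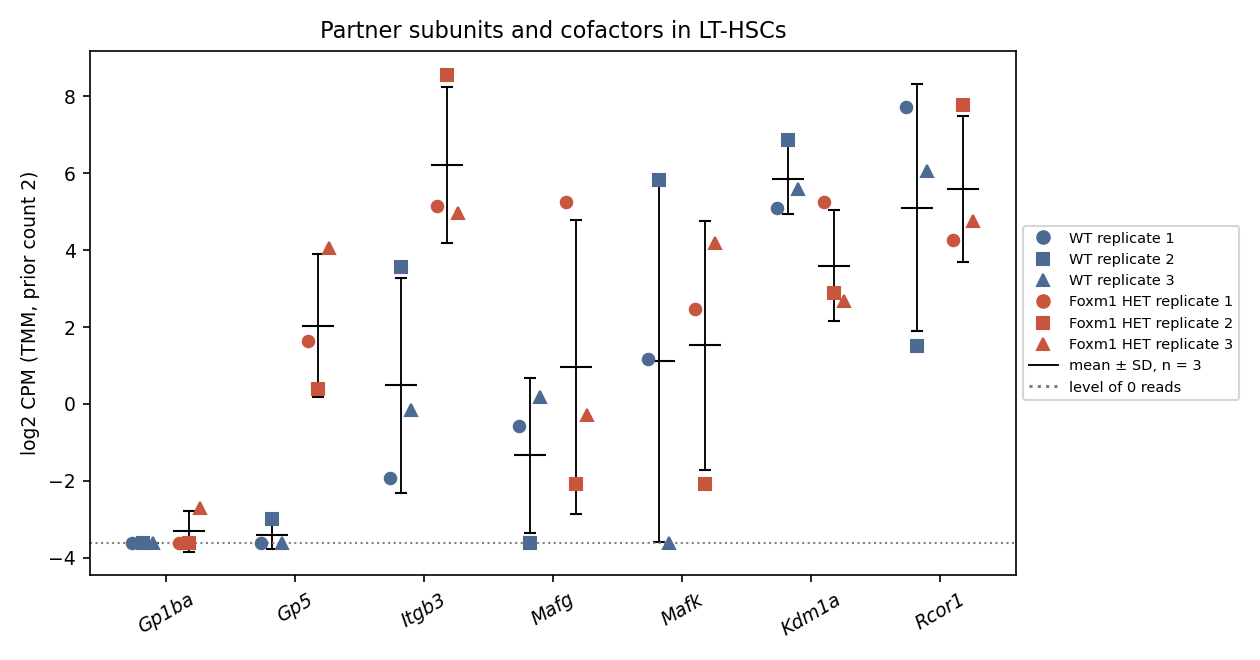
Level in every library of the genes whose proteins act with the members, as log2 CPM after TMM scaling with a prior count of 2, with genes on the x axis. Blue and red symbols are the 3 WT and 3 Foxm1 HET replicates, bars give the mean ± SD and the dotted line marks 0 reads; the genotypes separate for Gp5 and Itgb3, with 1 read of Gp5 in all WT libraries together.

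The partners of the members were read in the same way. Gp5, which encodes the glycoprotein V subunit that joins Gp1bb and Gp9 in the adhesion complex, had 0, 1 and 0 reads across the WT libraries, against 116, 8 and 699 across those of Foxm1 HET. Per counted read, the pooled HET libraries held 808 times as many as the pooled WT libraries, with a 95% counting interval of 145 to 31900. The interval covers counting error only and leaves out the spread between mice. That ratio rests on 1 WT read, and HET replicate 3 held 699 of the 823 HET reads. Without that library, a setting added after the data were seen, the ratio was 200 (35.3 to 7970). The fitted log2 fold change was 8.42 ± 4.07 SE, a value that depends on the prior count at so few WT reads, and it was 6.72 to 10.43 with a library left out. The edgeR unadjusted p was 0.0387 (adjusted p = 0.773). Gp1ba, which encodes the subunit that binds von Willebrand factor, had 3 reads in Foxm1 HET replicate 3 and 0 elsewhere, at or under the floor in every library.

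Itgb3, which encodes the β3 chain that pairs with the product of Itga2b, had 4, 263 and 13 reads across the WT libraries, against 1356, 2458 and 1298 across those of Foxm1 HET. Its fitted log2 fold change was 5.14 ± 2.44 SE (edgeR, unadjusted p = 0.0355, adjusted p = 0.768). Both Gp5 and Itgb3 had every HET library above every WT library on the 3 scales, with an exact permutation p of 0.1. With a library left out, Gp5 kept an unadjusted p under 0.05 in edgeR only where that library was HET replicate 2, and Itgb3 only where it was WT replicate 2 or HET replicate 3. The log2 fold change of Itgb3 was lowest, at 3.03, without HET replicate 2.

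**Figure D3:**
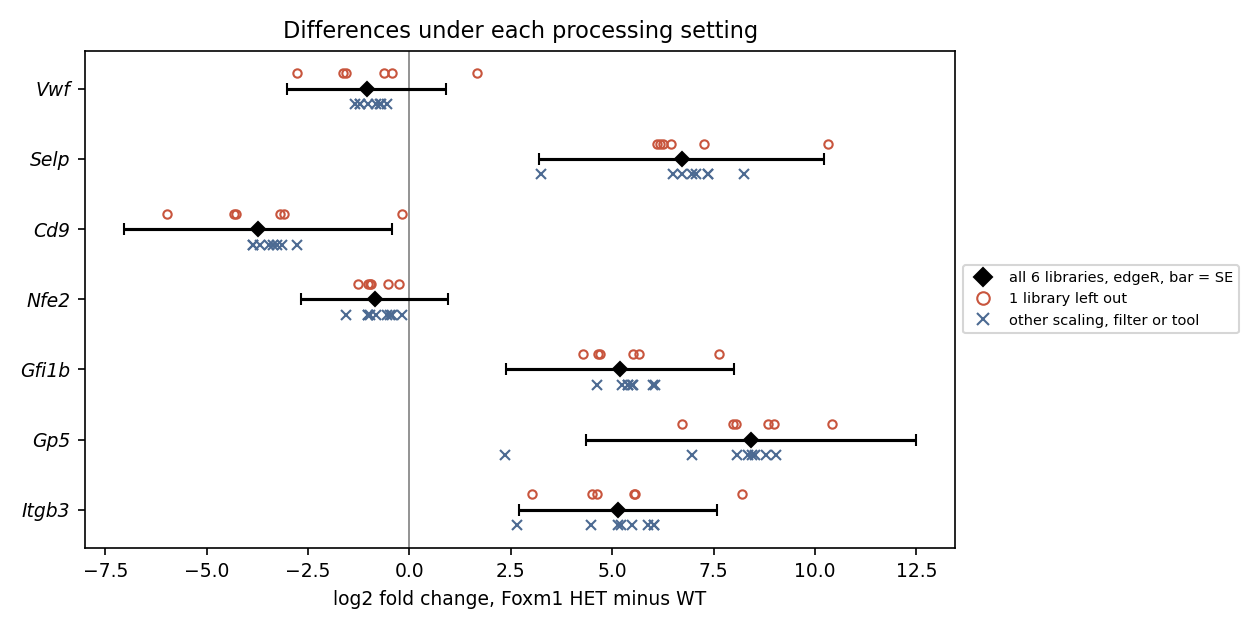
Log2 fold change, Foxm1 HET minus WT, on the x axis for the 5 tested members and for Gp5 and Itgb3 on the y axis. Black diamonds with SE bars are the fit to all 6 libraries, red circles leave out 1 library each and blue crosses use another scaling, filter or tool. Every setting lies to the right of 0 for Selp, Gfi1b, Gp5 and Itgb3, whose groups do not overlap. Vwf, whose groups do overlap, crosses 0.

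The partners named here for Nfe2 and Gfi1b overlapped between genotypes. The small Maf proteins Mafg and Mafk form NF-E2 with the product of Nfe2. Mafg had 13, 0 and 17 reads across the WT libraries, against 1441, 1 and 31 across those of Foxm1 HET, and Mafk had 48, 1279 and 0 against 208, 1 and 764. The GFI1B corepressors Kdm1a, a histone demethylase, and Rcor1 ranged from 47 to 2645 and from 63 to 4701 reads, with edgeR adjusted p of 0.998 for each. Gata1, the master regulator of megakaryocyte and erythroid genes, had 0 reads in all 6 libraries.

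Of the other 104 genes listed for the platelet programme, 102 were in the count table, 9 of them had 0 reads throughout, and 74 could be tested. Of these 74, 33 had a higher and 41 a lower fitted level in Foxm1 HET, with a median log2 fold change of −0.07, and none passed the adjusted threshold. An unadjusted p under 0.05 was reached by 4, namely Gp5, Itgb3, Rab27a and Mecom, all higher in Foxm1 HET, whereas 282 of all genes tested (3.44%) were called in that direction. Every HET library was above every WT library for 3 of the 74, against 338 of all genes tested (4.12%), and below for 5, against 373 of all genes tested (4.55%).

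By sublist, 6 of 12 adhesion receptors and integrins could be tested (4 higher, 2 lower, median log2 fold change 2.63). The medians were −0.03 over 19 signalling genes, −0.82 over 15 granule genes, −0.54 over 9 cytoskeleton and eicosanoid genes and −0.07 over 25 transcription factors and partners. Of these 25, 3 had every HET library below every WT library, against 373 of all genes tested (4.55%), and 0 had every HET library above. Rab27a, a small GTPase of granule docking, had 42914 reads in Foxm1 HET replicate 2 and 28 to 6820 in the other libraries, with a log2 fold change of 3.97 ± 1.48 SE (edgeR, unadjusted p = 0.00711, adjusted p = 0.399). Without that library it was −1.23. Mecom, a stem-cell and megakaryocyte zinc-finger factor, had 910, 4431 and 60 reads across the WT libraries, against 1393, 21758 and 9561 across those of Foxm1 HET. Its difference went from 3.91 ± 1.60 SE (edgeR, unadjusted p = 0.0142) to 0.75 without Foxm1 HET replicate 2, where its unadjusted p was above 0.05.

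**Figure D4:**
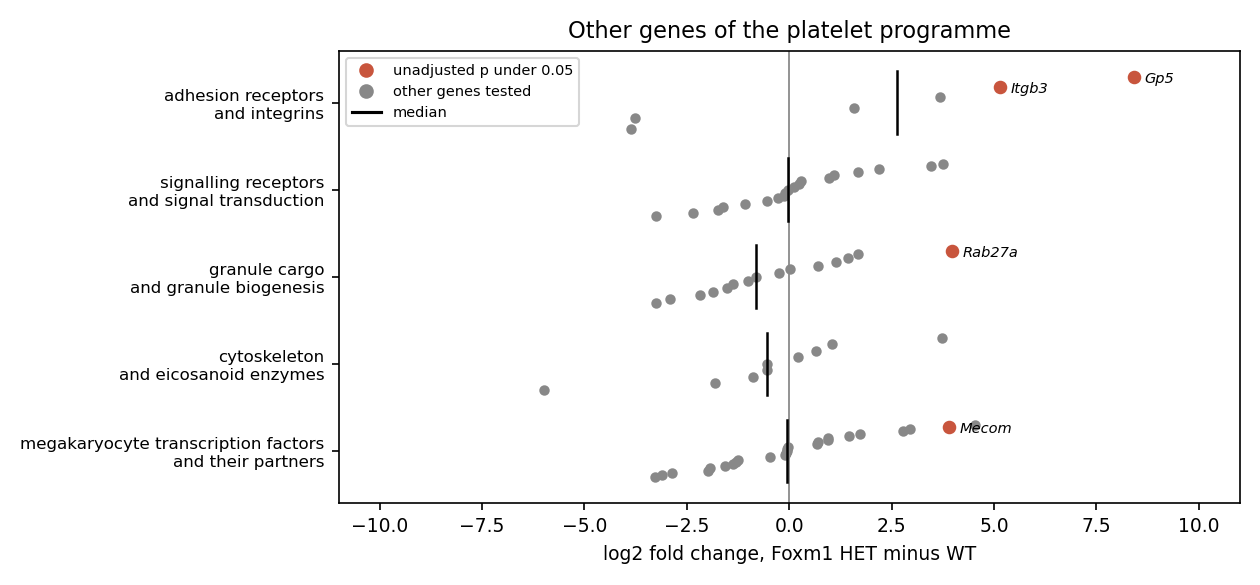
Log2 fold change, Foxm1 HET minus WT, on the x axis for each of the 74 other platelet programme genes tested, in 5 sublists on the y axis, with genes of a sublist ordered by value. Red points are the 4 genes with an unadjusted p under 0.05, grey points the others and black bars the medians; 33 genes lie to the right of 0 and 41 to the left.

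Apart from those 4, the genes with the 3 smallest p-values of each sublist lay in both directions. In the cytoskeleton list, Flna, the actin crosslinker that anchors glycoprotein Ib, had 15992 to 35932 reads in WT and 2488 to 14276 in Foxm1 HET, with no overlap on any of the 3 scales (log2 fold change −1.81 ± 1.43 SE, edgeR adjusted p = 0.982). Mylk, the myosin light chain kinase, had 2463 reads in WT replicate 3 and at most 82 in any other library. Vps33b, needed for α-granule formation, had 1065 to 3788 reads in WT and 5 to 1328 in Foxm1 HET, without overlap in log2 CPM or in the normalized table but overlapping by library size (log2 fold change −3.24 ± 2.26 SE, edgeR adjusted p = 0.959). Zfpm1, the GATA1 cofactor FOG-1, spanned 3 to 14824 reads and overlapped. The others with the 3 smallest p-values of their sublist, Icam2, Ptger3, Prkcq, Fermt3, F5, Actn1 and Ets1, all overlapped between genotypes in log2 CPM and by library size (Ptger3 did not in the normalized table, where every HET library was above every WT library), with fitted log2 fold changes of −3.85 (Icam2) to 3.76 (Ptger3) and edgeR adjusted p of 0.900 to 0.993.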

How the data were processed

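RNA-Seq libraries of sorted LT-HSCs (WT, n = 3, and Foxm1 HET, n = 3) were sequenced as 50-base single reads, aligned with STAR 2.7.2b to GRCm38 per the submitters' processing notes, and deposited by the authors as raw counts per gene and as a normalized log2 table. The counting program, its strand setting and the method behind the log2 values are not given in the sources used here (limma is named without a role), and the library kit differs between the labels and the methods.

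The 10 members and the gene lists were chosen with earlier results of these data known. Genes named with values were Foxm1, the members, their complex partners, and in each list those with an unadjusted p under 0.05 or among the 3 smallest p-values. A further gene of that rule is not reported here. Counts were tested in edgeR 4.0.16 (R 4.3.3) with TMM scaling, filterByExpr, a quasi-likelihood test on genotype and Benjamini-Hochberg adjustment over 8195 genes. SEs are the fold change over the square root of F. Log2 CPM used a prior count of 2, and single genes a two-sided exact permutation test. The methods speak of 3 pairs of mice, and neither they nor the labels tie the replicate numbers to pairs. The edgeR p-values set a difference between genotypes against the spread between these samples, and the permutation p ranks it among the ways to regroup them. Other scalings, filters, DESeq2 1.42.0 and limma 3.58.1 were alternatives. Stretches shared between genes were counted in GENCODE transcripts, and motifs were searched on both strands. Tested on simulated data, the fit recovered known changes at a low dispersion but not at the dispersion of these libraries, so a gene that missed the threshold is not shown to be alike in both genotypes. Intervals cover counting error only. Same-numbered libraries did not deviate together (correlations 0.02, −0.03 and −0.07).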

Additional observations from a re-analysis of the deposited data

How the results depend on the processing

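Another scaling moved the median log2 fold change of all genes from −0.26 (TMM) to −0.13 (RLE), 0.14 (upper quartile) and 0.10 (library size only). The 27 genes past the threshold in the main edgeR fit became 10 with RLE, 43 with upper-quartile scaling, 7 with library size only and 4 with limma-voom. They became 194 with DESeq2, which gave no adjusted p to 2000 genes. Among these, Itgb3, Rab27a and Mecom were given no unadjusted p either. The number was 0 with at least 10 counts in every library, with the replicate block and with limma on the normalized table. In those 3 settings, 157, 108 and 576 genes had an unadjusted p under 0.05. Leaving out each library gave 0 to 29, with 0 without WT replicate 1, WT replicate 2 or Foxm1 HET replicate 2 (615, 549 and 626 at an unadjusted p under 0.05) and 1 without WT replicate 3. The study's 3 pairs of mice are not tied to the replicate numbers, and same-numbered libraries did not deviate together, so the block may not be the true pairing. Members with an unadjusted p under 0.05 numbered 0 of 5 in the main edgeR fit, where 494 of all 8195 genes had such a p. They numbered 1 with RLE (587 of all genes), and 2 with upper-quartile scaling (466), DESeq2 (829) and limma-voom (271). In the normalized table they were 2 of 9 (576 of all 12179 genes). With a library left out they were 0 to 2, with 2 of 6 without WT replicate 1 (615 of all 9435 genes). In each case they were Selp alone or Selp and Gfi1b. The 3 members lower in Foxm1 HET became 5 with no filter and in the normalized table, where 9 members were tested, and 1 with at least 10 counts everywhere, where only Nfe2 was. The 4 programme genes with an unadjusted p under 0.05 became 6 with DESeq2 and 5 with RLE, with no filter and in the normalized table. They became 3 with library size only and with limma-voom, 1 with at least 10 counts everywhere and 1 with the replicate block. With a library left out they were 0 to 4 (0 without WT replicate 3, 1 without WT replicate 1, 2 without Foxm1 HET replicate 1). Over all genes, 977 of 13845 had such a p with no filter and 310 of 8195 with library size only. DESeq2 also called Gp5 (adjusted p = 0.0348, against up to 1 in the others). The log2 fold change of Vwf ranged from −2.79 to 1.67 and that of Rab27a from −1.23 to 5.11 with a library left out, and no other gene listed for these settings changed sign. The cause of these changes was not tested, apart from the fewer genes tested under the stricter filter. Pf4, Itga2b, Gp1bb and Gp9 were under the filter of the main fit, and Treml1, with 0 reads, has no fitted test in any setting. In edgeR with no filter, the log2 fold changes were −9.366 (Pf4), 5.788 (Itga2b), 8.5 (Gp1bb) and −6.065 (Gp9). Each had an unadjusted p above 0.05 and rests on reads in few libraries. Itga2b was also fitted with some of the libraries left out, with the same sign.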
